A study of Homo sapiens with 4 samples.

Results

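Solute carriers (SLC) are the membrane proteins that move sugars, amino acids, ions, metals, nucleosides, vitamins and metabolites across the plasma membrane and the membranes of organelles. They are grouped in numbered families, and most work as exchangers, as co-transporters driven by an ion gradient, or as passive carriers. In glioma cells they are best known for glucose, glutamate, cystine and lactate transport. Described here are the SLC genes expressed in U87, a long-established cell line from a human glioma, with and without a short hairpin RNA against PTPRN. Members were the symbols made of SLC, a family number, the letter A and a member number whose FPKM, summed per symbol, had a mean of at least 1 over all libraries, so they were chosen by their measured level in the libraries compared. FPKM is fragments per kilobase of transcript, scaled to the mapped fragments of the library, and is a level per length, so levels of different genes can be compared. The tables held 338 such symbols among 27940, and 161 from 41 families passed. Families named with another letter, such as SLC35B to SLC35F, are outside the rule.

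The control group, shNC, was infected with lentivirus made from the empty FUGW-H1 vector, and the other group, shPTPRN3, with lentivirus carrying the hairpin, per the labels. The series' design text calls the control H1-RFP (WT), so its exact vector is uncertain. Each group has 2 libraries, which that text calls biological replicates, without saying whether separate cultures were used, and p-values here reflect only how far libraries of a group lie apart, and that spread may be technical. Both groups were grown in DMEM with 10% fetal bovine serum, and only 1 hairpin against PTPRN is represented.

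The width of the authors' confidence intervals gave an estimated depth of 11.8 to 29.3 M fragments, with shPTPRN3 replicate 1 the deepest. A member had a median of 268 to 670 fragments behind its value by the same estimate. PTPRN, the target, stood at 27.6 and 19.8 scaled FPKM in shNC replicates 1 and 2 and at 4.96 and 3.62 in shPTPRN3 replicates 1 and 2 (log2 fold change -2.22, SE 0.36, limma's adjusted p = 0.0270). Scaled FPKM are the deposited values divided by 1 factor per library, between 0.943 and 1.05. Of the glioma markers looked up, VIM, CD44 and FN1 were above 40 scaled FPKM in every library, NES was between 0.973 and 4.01, SOX2, OLIG2 and S100B were under 1 in every library and GFAP was listed at 0 in all. Of 13 markers of other cell types, 11 were under 1 FPKM in every library. CD68, a lysosomal glycoprotein used as a macrophage marker, stood at 225 to 434 scaled FPKM and SNAP25, a neuronal SNARE protein, at 5.95 to 28.5, both higher in shPTPRN3, and the deposited values of all 13 summed to 243.6 and 255 in shNC, against 489 and 319 in shPTPRN3. The part of other cell types in the results below was not tested. In bulk RNA, fewer cells of a type and less RNA per cell cannot be told apart.

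The members were sorted into 15 classes by what they carry, by family with exceptions for single genes. Mitochondrial carriers of the SLC25 family were the largest class with 38 members, followed by amino acid transporters (22), transporters of inorganic ions (20), zinc transporters (16) and sugar transporters (14). The smaller classes were fatty acid, choline and acetyl-CoA transporters (7), vitamin and haem transporters (6), organic cation and anion transporters (6), carboxylate transporters (6), nucleotide sugar transporters (5), nucleoside and nucleobase transporters (4), other trace metals (3), phosphate and sulfate (3), and neurotransmitters with creatine and taurine (3). A further 8 members were left as other or unassigned.

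Promoters of 3 members are shown as examples of windows with a motif match, and were picked for those matches. RefSeq promoter windows on GRCh38.p14, from 250 bases before to 50 after a start, were at hand for 129 of the 161 members. The motifs searched, on both strands, were TGCNCNC, a loose pattern for the core of the metal response element of the zinc sensor MTF1, and the E-box CACGTG. N stands for any base, so a match to the loose pattern need not be a site that MTF1 binds. SLC12A8, 1 of the 2 members that passed the test, has 1 match to the metal response pattern in its window at chr3:125211350-125211649 (minus strand). SLC30A1, the zinc exporter of the plasma membrane and a textbook MTF1 target, has 2 in the window at chr1:211579112-211579411 (minus strand). SLC36A1, the proton-coupled amino acid exporter of lysosomes, has 2 E-boxes in the window at chr5:151447353-151447652 (plus strand), and none in its other window. Among the windows looked at with them, SLC46A3 had 0 E-boxes, SLC41A3 had 0 metal response matches in both windows, and 1 of the 4 windows of SLC19A1 held an E-box. Capitals mark the matches.
SLC12A8: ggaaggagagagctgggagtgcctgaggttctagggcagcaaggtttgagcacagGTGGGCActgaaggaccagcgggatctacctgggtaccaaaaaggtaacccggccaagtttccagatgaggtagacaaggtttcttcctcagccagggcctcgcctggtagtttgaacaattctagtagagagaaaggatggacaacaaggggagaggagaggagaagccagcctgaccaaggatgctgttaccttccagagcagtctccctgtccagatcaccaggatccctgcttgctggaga
SLC30A1: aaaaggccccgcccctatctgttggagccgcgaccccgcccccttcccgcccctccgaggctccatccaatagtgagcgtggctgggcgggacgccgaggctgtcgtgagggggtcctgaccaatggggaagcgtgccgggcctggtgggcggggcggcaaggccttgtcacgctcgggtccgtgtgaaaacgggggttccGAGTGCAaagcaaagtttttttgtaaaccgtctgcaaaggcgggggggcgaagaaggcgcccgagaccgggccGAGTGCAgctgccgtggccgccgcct
SLC36A1: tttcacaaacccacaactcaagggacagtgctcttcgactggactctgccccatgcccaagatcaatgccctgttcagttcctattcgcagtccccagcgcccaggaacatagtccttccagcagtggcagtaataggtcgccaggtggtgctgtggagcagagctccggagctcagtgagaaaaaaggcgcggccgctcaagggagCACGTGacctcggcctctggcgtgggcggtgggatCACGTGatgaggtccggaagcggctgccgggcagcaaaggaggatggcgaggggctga
The metal response pattern was found in 65.0% of the 197 member windows and in 55.9% of all 35116 windows, and the E-box in 14.7% and 7.26%. Among the 20 windows of 14 zinc transporters, 10 held the metal response pattern. A further 3 motifs were counted in the same way. The CHOP-ATF4 core TGATGNAA was in 5.08% of member windows and 3.62% of all, the antioxidant response core TGACNNNGC in 16.8% and 13.3%, and the hypoxia response core ACGTG, which lies inside the E-box, in 30.5% and 21.4%. The windows of all genes were not limited to genes expressed here, as those of the members were, so the shares compare unlike sets. All of these are matches of letters, with no measure of binding.

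Most members were expressed at low to moderate levels. The median member had a mean of 7.09 FPKM, 61 members were under 5 FPKM, 58 were at 10 or more and 9 at 50 or more. The highest was SLC25A5, the main ADP/ATP exchanger of the inner mitochondrial membrane in dividing cells, with a mean of 270.1 FPKM. Next came SLC25A39, which carries glutathione into mitochondria, SLC20A1, a sodium-phosphate co-transporter, and SLC25A3, the mitochondrial phosphate carrier. SLC25A1 (citrate), SLC39A1 (zinc), SLC3A2 (the heavy chain of several amino acid exchangers), SLC4A2 (chloride-bicarbonate exchange), SLC39A7 (zinc release from the endoplasmic reticulum) and SLC50A1 (sugars) completed the 10 highest. SLC39A7 was summed over 6 rows, and no deposited interval of its largest row went above 13.1 FPKM, so its rank rests on that sum. All members together took 0.575% and 0.700% of the summed FPKM in shNC and 0.665% and 0.712% in shPTPRN3. At the threshold, SLC7A11 (mean 1.03 FPKM) and SLC9A3 (1.05) were just inside and SLC4A3 (0.925) and SLC9A9 (0.888) just outside.

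Both group means were at least 1 FPKM for 147 members. Of the others, 7 reached 1 only in shNC and 7 only in shPTPRN3, and those 14 had to differ to some degree by the way they were chosen. The members listed at exactly 0 in a library, which in Cufflinks tables can be a failed estimate, numbered 3, SLC31A2 and SLC24A1 among them, and were left out of the test, as were all 267 such genes of the tables. That left 158 members among 11127 genes.

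In the test of shPTPRN3 against shNC, 2 of the 158 members fell and 0 rose at an adjusted p under 0.05 (limma, Benjamini-Hochberg over all 11127 genes). That is 1.27% of the members, against 1.97% of all genes tested (0.377% higher and 1.59% lower). Before adjustment, at p under 0.05, 17 members (10.8%) stood above and 8 (5.06%) below their controls, against 6.41% and 8.22% of all genes. The members' median log2 fold change was 0.10, and that of all genes -0.00. The direction was positive for 91 members and negative for 67 (49.7% of all genes were positive). A log2 fold change above 1 was found in 7 (4.43%) and one under -1 in 6 (3.8%), against 3.65% and 5.44% of all genes. Both shPTPRN3 values lay above both shNC values for 48 members (30.4%) and below them for 29 (18.4%), against 21.7% and 23.1% of all genes. Leaving out shNC replicate 1, shNC replicate 2 or shPTPRN3 replicate 1 gave 7, 7 and 9 members called (4.43%, 4.43% and 5.7%, against 3.57%, 5.46% and 3.75% of all genes), and leaving out shPTPRN3 replicate 2 gave 1 (0.633% against 0.881%). Those fits take p-values from a variance pooled over genes, so their counts of calls are no measure of evidence. The direction of the members' median was the same in each unblocked setting tried, but with FPKM rescaled to TPM the median of all genes itself moved to 0.08 and that of the members to 0.19.

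**Figure D1:**
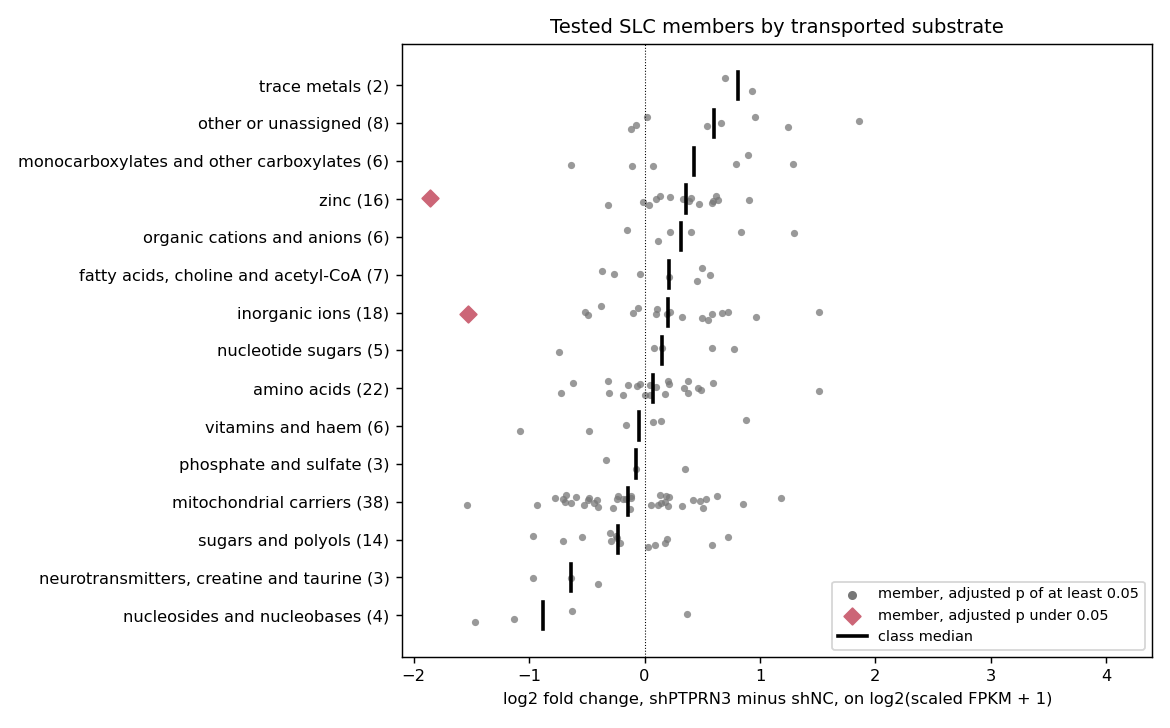
Log2 fold change (x axis, shPTPRN3 minus shNC) of the 158 tested members, 1 point each, by substrate class (y axis, number tested in brackets); vertical bars are class medians and diamonds the members with an adjusted p under 0.05. The 2 diamonds are SLC39A14 at -1.86 and SLC12A8 at -1.53, and class medians run from -0.88 for nucleosides and nucleobases to 0.81 for trace metals.

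Among zinc transporters, the importer SLC39A14 fell while most other members had small positive values. Zinc enters the cytosol through SLC39 proteins and leaves it through SLC30 proteins, into vesicles or out of the cell. SLC39A14, which also carries iron and manganese, stood at 32.0 and 51.5 scaled FPKM in shNC replicates 1 and 2 and at 10.5 and 10.4 in shPTPRN3. Each library with the hairpin was lower than either control, and the deposited intervals of the groups did not overlap (31.9 to 34.8 and 48.1 to 52.6 FPKM in shNC, 10.5 to 11.7 and 8.95 to 10.7 in shPTPRN3). The log2 fold change was -1.86 (SE 0.37, adjusted p = 0.0374), a 3.63-fold lower fitted level. The gene lies on chromosome 8 from 22367278 to 22434127 (hg38) and overlaps no other locus of the tables. Its log2 fold change lay between -2.19 and -1.53 over 17 unblocked alternatives. The call was lost without shPTPRN3 replicate 2 (log2 fold change -1.84). It was also lost with genes listed at 0 kept (adjusted p = 0.0823), on FPKM as deposited (0.0634), on TPM (0.0921) and with 4 other settings.

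Of the 16 zinc transporters, 13 had a positive and 3 a negative log2 fold change, with a median of 0.36. The groups did not overlap for 6 above and 1 below (21.7% and 23.1% of all genes). SLC39A10, an importer of the plasma membrane, stood at 2.34 and 5.65 scaled FPKM in shNC, against 6.84 and 8.87 in shPTPRN3 (log2 fold change 0.90, adjusted p = 0.334). The exporter SLC30A1, whose promoter is shown above, stood at 7.92 and 12.3 in shNC, against 15.6 and 16.4 in shPTPRN3 (0.64, adjusted p = 0.444). For both genes every shPTPRN3 value exceeded every shNC value, without passing limma's test. SLC30A7, which loads zinc into the Golgi, had 0.62, and SLC39A7 had 0.59. SLC39A4, the importer that is defective in acrodermatitis enteropathica, followed the replicate number and not the group, at 21.0 and 7.83 scaled FPKM in shNC, against 21.6 and 4.52 in shPTPRN3 (-0.32, adjusted p = 0.880).

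The copper and iron transporters, grouped as other trace metals, had higher values in shPTPRN3, and 1 of them rests on listed zeros. SLC31A1, the copper importer of the plasma membrane, stood at 8.92 and 12.9 scaled FPKM in shNC, against 15.3 and 29.8 in shPTPRN3 (log2 fold change 0.93, adjusted p = 0.327). SLC11A2, the importer of iron and other divalent metals, stood at 12.3 and 18.5 in shNC, against 24.9 and 25.2 in shPTPRN3 (0.70, adjusted p = 0.408). The groups did not overlap for either gene, with shPTPRN3 above, as for 21.7% of all genes. SLC31A2, a copper transporter of endosomes, was listed at 0 in both shNC libraries and at 16.2 and 20.7 FPKM with the hairpin. It lies on chromosome 9 from 113151007 to 113164140 and overlaps FKBP15, which stood the other way, at 8.73 and 9.34 scaled FPKM in shNC, against 3.20 and 3.01 in shPTPRN3 (-1.29, adjusted p = 0.0843). SLC31A2 reached 1 FPKM only in shPTPRN3, so it had to differ to some degree by the way members were chosen. With the genes listed at 0 kept in limma's fit, it was the 1 member of 161 called (adjusted p = 0.00467, with 0.421% of all genes called). That call rests on listed zeros without spread in shNC, and adds no evidence of a difference. Whether the zeros of SLC31A2 are failed estimates was not tested.

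Transporters of inorganic ions included the other member that fell. SLC12A8, of the cation-chloride co-transporter family, stood at 4.49 and 4.03 scaled FPKM in shNC, against 1.24 and 0.485 in shPTPRN3 (log2 fold change -1.53, SE 0.32, adjusted p = 0.0435). It lies on chromosome 3 from 125082636 to 125212765, and the microRNA gene MIR5092 overlaps it. It is also a member that reached 1 FPKM in shNC alone, and about 25 fragments lay behind its value in shPTPRN3 replicate 2. Its log2 fold change lay between -2.30 and -1.23 over 16 unblocked alternatives. The call was lost without shPTPRN3 replicate 2 (log2 fold change -1.23). It was also lost at a pseudocount of 0.5 (adjusted p = 0.0506) or 0.1 (0.0660) and under each other scaling. The same held with genes listed at 0 kept (0.108), without a filter on low values (0.132) and with eBayes without trend (0.0852).

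Among the 18 tested ion transporters 12 values were positive and 6 negative, with a median of 0.21. SLC41A3, of a family of magnesium transporters, stood at 14.8 and 12.2 scaled FPKM in shNC, against 43.2 and 37.3 in shPTPRN3, so that the lowest shPTPRN3 value was well above the highest shNC value (1.51, SE 0.35, adjusted p = 0.0621). Its log2 fold change lay between 1.38 and 1.64 over the unblocked alternatives, and it passed with the trend with transcript length removed (adjusted p = 0.0427). SLC12A4, a potassium-chloride co-transporter, stood at 9.99 and 10.7 in shNC, against 16.4 and 27.3 in shPTPRN3 (0.97, adjusted p = 0.258), and its locus overlaps LCAT. SLC12A9, of the same family, had -0.51 with overlapping groups.

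A further 2 ion transporters had smaller values. SLC12A2, the sodium-potassium-chloride co-transporter that loads cells with chloride, was low throughout, at 1.12 and 2.10 scaled FPKM in shNC, against 0.955 and 0.998 in shPTPRN3 (-0.37, adjusted p = 0.634). SLC4A2 stood at 60.7 and 62.8 against 66.5 and 77.9 (0.22, adjusted p = 0.857). For SLC4A2 every shPTPRN3 value was above every shNC value, and for SLC12A2 they lay below.

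An ion transporter also had listed zeros. SLC24A1, a sodium-calcium-potassium exchanger, was listed at 0.679 and 3.57 FPKM in shNC and at 0 in both shPTPRN3 libraries. It overlaps DENND4A, which stood at 1.47 and 2.99 scaled FPKM in shNC, against 3.80 and 6.13 in shPTPRN3. SLC31A2 and SLC24A1 thus both lie on a locus shared with another gene, as do 31.0% of the tested members and 33.1% of all genes tested.

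**Figure D2:**
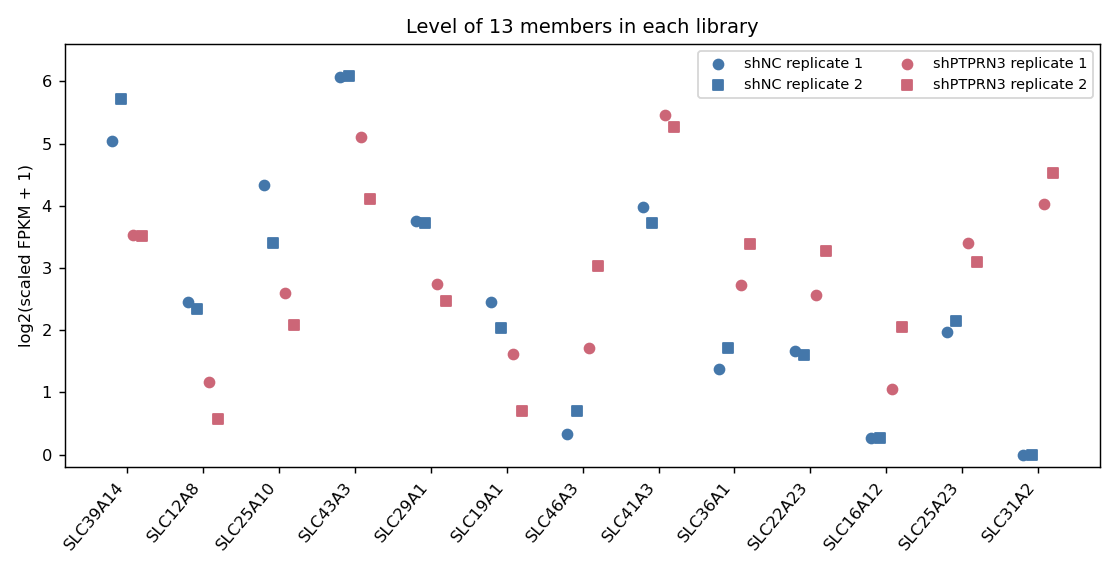
Level of 13 members (x axis) in each library as log2(scaled FPKM + 1) (y axis); blue is shNC, red shPTPRN3, circles replicate 1 and squares replicate 2. No group overlaps the other for these members, which were picked for large differences, and both shNC values of SLC31A2 are listed zeros.

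Nucleoside and nucleobase carriers had the lowest class median, -0.88 over 4 members. Equilibrative transporters of the SLC29 family let cells salvage nucleosides for nucleotide synthesis. SLC43A3, a purine nucleobase carrier, stood at 66.3 and 66.7 scaled FPKM in shNC, against 33.3 and 16.3 in shPTPRN3 (log2 fold change -1.47, SE 0.42, adjusted p = 0.124). SLC29A1, the main nucleoside carrier of the plasma membrane, stood at 12.5 and 12.2 in shNC, against 5.68 and 4.54 in shPTPRN3 (-1.13, SE 0.34, adjusted p = 0.138). SLC29A2 stood at 5.47 and 4.57 against 3.49 and 2.34 (-0.63, adjusted p = 0.420). For these 3 of the 4 members both shPTPRN3 values were below both shNC values, as for 23.1% of all genes. None passed the test, and the class was singled out as the lowest of 15 medians. SLC29A3, which works in lysosomes, stood at 3.16 and 1.09 in shNC, against 3.30 and 2.39 in shPTPRN3 (0.37, adjusted p = 0.725). Without shPTPRN3 replicate 1, SLC43A3 had -1.97, and without shPTPRN3 replicate 2 it had -0.96.

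Carriers of vitamins and haem were mixed, with 3 positive and 3 negative values and a median of -0.05. SLC19A1, the reduced folate carrier, stood at 4.46 and 3.08 scaled FPKM in shNC, against 2.06 and 0.630 in shPTPRN3 (-1.08, SE 0.37, adjusted p = 0.201). It had -1.53 without shPTPRN3 replicate 1 and -0.62 without shPTPRN3 replicate 2. Its locus overlaps COL18A1, which was listed at 0 in all 4 libraries. Its relative SLC19A2, a thiamine carrier, stood the other way, at 4.86 and 6.21 in shNC, against 10.0 and 12.0 in shPTPRN3 (0.88, adjusted p = 0.265). SLC48A1, a haem transporter, had -0.48, SLC23A2, which takes up ascorbate, 0.14, and SLC52A2, a riboflavin carrier, 0.07.

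The class of mitochondrial carriers holds the SLC25 family, most of which move metabolites across the inner mitochondrial membrane. It had a median of -0.15 over 38 tested members, with 16 positive and 22 negative values and none called (background 1.97%). SLC25A10, the dicarboxylate carrier, was lowest, at 19.2 and 9.62 scaled FPKM in shNC, against 5.04 and 3.23 in shPTPRN3 (-1.54, SE 0.41, adjusted p = 0.0970). It had -2.01 without shNC replicate 2 and -1.07 without shNC replicate 1. SLC25A30 stood at 3.32 and 4.42 in shNC, against 2.07 and 1.09 in shPTPRN3 (-0.93, adjusted p = 0.223).

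At the other end of that family, SLC25A23, which exchanges ATP-magnesium for phosphate and is regulated by calcium, stood at 2.94 and 3.44 scaled FPKM in shNC, against 9.56 and 7.56 in shPTPRN3 (1.19, SE 0.34, adjusted p = 0.124). SLC25A44, a carrier of branched-chain amino acids, stood at 11.5 and 10.9 in shNC, against 15.8 and 27.9 in shPTPRN3 (0.86, adjusted p = 0.331). SLC25A1, the citrate exporter that supplies carbon for lipid synthesis, stood at 78.3 and 59.6 against 139 and 80.8 (0.63, adjusted p = 0.557). Each of these genes had non-overlapping groups, with shPTPRN3 above. That held for 8 of the 38 carriers, and 11 had shPTPRN3 below, against 21.7% and 23.1% of all genes.

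The ADP/ATP exchangers were lower in shPTPRN3 for the 2 abundant isoforms without passing the test. SLC25A5 stood at 397 and 259 scaled FPKM in shNC, against 254 and 157 in shPTPRN3 (-0.68, SE 0.51, adjusted p = 0.594). Its groups lay close, 259 against 254 at the nearest. SLC25A6 stood at 30.8 and 31.4 in shNC, against 20.6 and 15.2 in shPTPRN3 (-0.78, adjusted p = 0.348), summed over its pair of rows. SLC25A4, the isoform of muscle and heart, was at 2.15 to 3.36 in all libraries (-0.12). These paralogues are closely similar and SLC25A5 has many processed copies, so how fragments were shared among them is uncertain. The phosphate carrier SLC25A3 (0.06) and SLC25A39 (0.11) had values near 0. SLC25A5 took 15.0% and 11.6% of the members' summed level in shNC and 9.80% and 6.63% in shPTPRN3.

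Amino acid transporters had a median of 0.07 over 22 members, with 14 positive and 8 negative values (49.7% of all genes were positive) and none called (background 1.97%). SLC36A1, whose promoter is shown above, stood at 1.59 and 2.28 scaled FPKM in shNC, against 5.61 and 9.40 in shPTPRN3 (1.51, SE 0.36, adjusted p = 0.0670). It passed without shNC replicate 2 (adjusted p = 0.0136), without shPTPRN3 replicate 1 (0.0123) and with the length trend removed (0.0460). SLC38A9, the lysosomal arginine sensor that signals to mTORC1, stood at 2.30 and 2.18 in shNC, against 2.91 and 5.13 in shPTPRN3 (0.60, adjusted p = 0.458). For both the groups did not overlap, with shPTPRN3 above, as for 5 of the 22 members and 21.7% of all genes. SLC38A7, another lysosomal amino acid carrier, had 0.0072 with overlapping groups.

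The glutamate uptake carrier SLC1A3, an astrocytic gene, was lowest of that class, at 6.78 and 12.6 scaled FPKM in shNC, against 5.50 and 4.96 in shPTPRN3 (-0.72, adjusted p = 0.410). SLC7A8, an exchanger of neutral amino acids, followed with -0.62. The carriers best known in tumours had small differences or groups that overlapped. SLC1A5, the glutamine carrier, stood at 59.8 and 37.4 in shNC, against 43.8 and 46.8 in shPTPRN3 (-0.06, adjusted p = 0.970). SLC7A5, the leucine exchanger, stood at 3.84 and 1.73 against 3.11 and 5.07 (0.46, adjusted p = 0.648). SLC7A11, the cystine-glutamate exchanger, was near the threshold of expression, at 0.535 to 1.70 (0.04, adjusted p = 0.974).

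SLC3A2, the heavy chain that pairs with SLC7A5 and SLC7A11, went in opposite directions in the 2 numbered pairs. It stood at 104 scaled FPKM in shNC replicate 1 and 43.1 in shPTPRN3 replicate 1, but at 47.2 in shNC replicate 2 and 73.0 in shPTPRN3 replicate 2 (-0.32, SE 0.48, adjusted p = 0.827). SLC38A2, which takes up small neutral amino acids, stood at 27.2 and 62.0 in shNC, against 26.6 and 72.7 in shPTPRN3 (0.10, adjusted p = 0.967), so that its level followed the number.

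Sugar transporters had a median of -0.23 over 14 members, with none called (background 1.97%). SLC2A1, the glucose carrier of most dividing cells, stood at 16.4 and 13.3 scaled FPKM in shNC, against 14.3 and 17.4 in shPTPRN3 (0.09, adjusted p = 0.944). SLC2A3, the high-affinity neuronal glucose carrier, stood at 12.3 and 13.2 in shNC, against 7.37 and 7.42 in shPTPRN3 (-0.71, adjusted p = 0.365). Replicates of SLC2A3 lay close and the groups apart, yet the difference did not pass over all genes. SLC2A14, a near copy of SLC2A3 with which reads may be shared, had -0.54. SLC2A11 stood at 6.03 and 3.84 against 1.94 and 2.04 (-0.97, adjusted p = 0.204).

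SLC45A1, a proton-linked sugar carrier, had the highest value of the class, at 1.21 and 1.12 scaled FPKM in shNC, against 2.65 and 2.50 in shPTPRN3 (0.73, adjusted p = 0.278). SLC50A1 stood at 47.5 and 29.3 in shNC, against 63.4 and 50.4 in shPTPRN3 (0.59, adjusted p = 0.545). The groups did not overlap for either. These were the 2 of 14 with shPTPRN3 above, and 3 had it below (21.7% and 23.1% of all genes).

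Among carboxylate transporters, SLC16A1, which carries lactate, pyruvate and ketone bodies, stood at 16.1 and 19.0 scaled FPKM in shNC, against 30.1 and 31.9 in shPTPRN3 (0.79, SE 0.35, adjusted p = 0.327). SLC16A3, the lactate exporter of glycolytic cells, followed the number instead, at 32.0 and 15.6 in shNC, against 33.1 and 12.8 in shPTPRN3 (-0.11, adjusted p = 0.955). Their shared chaperone BSG, no member, had -0.75 (adjusted p = 0.585). SLC16A12 stood at 0.207 and 0.196 in shNC, against 1.07 and 3.15 in shPTPRN3 (1.29, SE 0.34, adjusted p = 0.103); it reached 1 FPKM in shPTPRN3 alone and its locus overlaps SLC16A12-AS1. Its log2 fold change was 1.77 without shPTPRN3 replicate 1 and 0.80 without shPTPRN3 replicate 2. SLC16A13 had 0.90 and SLC16A6 -0.63, and the class median was 0.43 over 6 members.

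Members with other or unassigned substrates held the highest log2 fold change of the 158 tested, which leave out SLC31A2 and its listed zeros. SLC46A3, a lysosomal transporter, stood at 0.262 and 0.624 scaled FPKM in shNC, against 2.29 and 7.15 in shPTPRN3 (1.85, SE 0.42, adjusted p = 0.0548). It reached 1 FPKM only in shPTPRN3, and about 18.8 and 31.0 fragments lay behind its shNC values. Its log2 fold change was 2.49 without shPTPRN3 replicate 1 and 1.22 without shPTPRN3 replicate 2. SLC66A3 (-0.12) and SLC49A4 (-0.07) had the lowest values of the 8, whose median was 0.60.

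Transporters of organic cations and anions had a median of 0.31 over 6 members. SLC22A23 stood at 2.17 and 2.03 scaled FPKM in shNC, against 4.92 and 8.71 in shPTPRN3 (1.29, SE 0.36, adjusted p = 0.112). SLC22A4, the ergothioneine carrier, stood at 2.66 and 1.69 against 4.59 and 4.61 (0.83, adjusted p = 0.268). SLC22A5, the carnitine carrier, had 0.12 and SLC22A18 -0.16. SLC22A23 had 1.64 without shPTPRN3 replicate 1 and 0.95 without shPTPRN3 replicate 2.

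The remaining classes had small or divided values. All 5 SLC35A genes, which bring nucleotide sugars into the Golgi for glycan synthesis, were expressed, with a median of 0.15. SLC35A1, the CMP-sialic acid carrier, stood at 6.03 and 4.01 scaled FPKM in shNC, against 8.66 and 9.63 in shPTPRN3 (0.77, adjusted p = 0.342). SLC35A2, the UDP-galactose carrier, stood at 20.4 and 17.9 against 13.5 and 8.91 (-0.75, adjusted p = 0.374), so these 2 Golgi carriers had opposite signs with groups apart. SLC35A4 had 0.58 and SLC35A3, the UDP-N-acetylglucosamine carrier, 0.08. Of the choline carriers, SLC44A1 had 0.57 and SLC44A2 0.50, and of the fatty acid transporters, SLC27A5 had -0.37 and SLC27A3 -0.27. SLC44A1 stood at 3.29 and 13.7 in shNC, against 11.4 and 10.1 in shPTPRN3, and leaving out each library in turn moved its value between -0.32 and 1.45. The phosphate importer SLC20A1 stood at 114 and 99.8 in shNC, against 112 and 91.0 in shPTPRN3 (-0.08, adjusted p = 0.967).

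In the class of neurotransmitters, creatine and taurine, the 3 members had negative values. SLC6A6, the taurine carrier, stood at 10.8 and 15.1 scaled FPKM in shNC, against 7.25 and 8.53 in shPTPRN3 (-0.64, adjusted p = 0.434), and its locus overlaps GRIP2. SLC6A8, the creatine carrier, stood at 36.6 and 34.1 against 31.6 and 22.1 (-0.41, adjusted p = 0.680). The groups did not overlap for either, with shPTPRN3 below, as for 23.1% of all genes. SLC6A12, the betaine carrier, varied by number, at 0.316 and 9.15 in shNC, against 0.0301 and 2.38 in shPTPRN3 (-0.97, SE 0.80, adjusted p = 0.647). Dropping shNC replicate 1 moved the log2 fold change of SLC6A12 to -2.43, and dropping shPTPRN3 replicate 2 moved it to -1.84. The other omissions leave no such fall. If shNC replicate 2 is dropped, the remaining control (0.316) lies between the hairpin values (0.0301 and 2.38). If shPTPRN3 replicate 1 is dropped, the remaining hairpin value (2.38) lies between the controls (0.316 and 9.15). The fall of SLC6A12 thus depends on which libraries are kept.

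Other membrane transporters and partners outside the rule were read from a list of 58 genes, among them sodium and calcium pumps, ABC transporters, SLCO and SLC35B to F genes and the channels of the outer mitochondrial membrane. Of the 50 tested, none was called in either direction (background 1.97%), 30 values were positive and 20 negative, and the median was 0.15. Large differences among them were those of SLCO4A1, an organic anion transporter, at -1.80 (SE 0.46, adjusted p = 0.0847) and ATP6V1B2, a subunit of the lysosomal proton pump, at 1.07 (SE 0.41, adjusted p = 0.267).

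The difference between groups can be taken separately in the libraries numbered 1 and those numbered 2, which share no library. Over the 158 members these values correlated with r = 0.636 (rho = 0.600), against r = 0.667 (rho = 0.605) over all 11127 genes, a description across genes that share 4 libraries. The sign was the same in both for 115 members and opposite for 43, and the same for 70.3% of all genes. SLC39A14 had -1.52 and -2.20, SLC12A8 -1.29 and -1.76, SLC46A3 1.38 and 2.33, and SLC41A3 1.49 and 1.53. Within the libraries numbered 1 the difference also went with transcript length across members (rho = 0.238 over 154 with a length), and within those numbered 2 the value was near 0 (rho = -0.0451). The values over all genes were 0.308 and -0.0131.

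**Figure D3:**
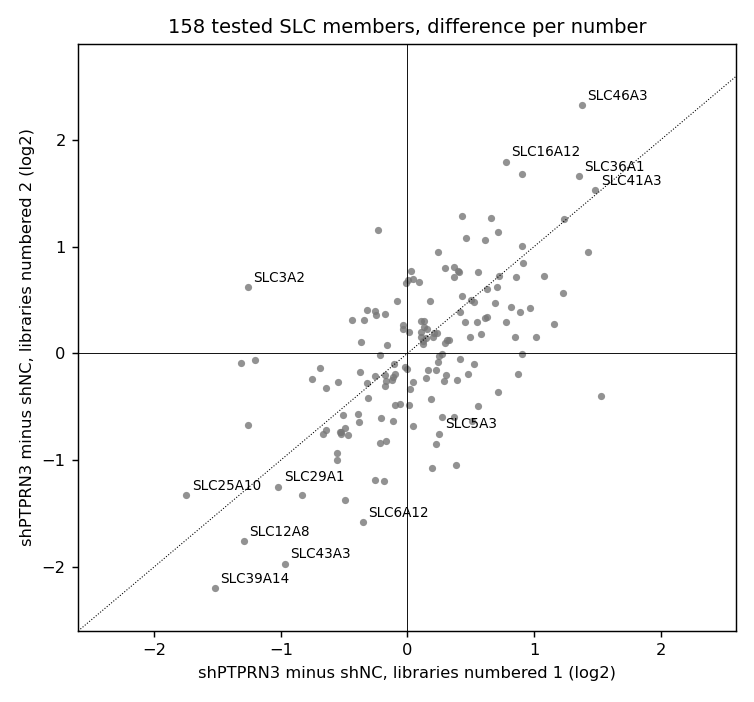
Difference between shPTPRN3 and shNC in log2(scaled FPKM + 1) for the 158 tested members, within the libraries numbered 1 (x axis) and numbered 2 (y axis); the dotted line marks equal values. SLC39A14, SLC12A8, SLC25A10 and SLC29A1 lie at the low end of both axes, SLC46A3, SLC41A3 and SLC36A1 at the high end, and SLC3A2 lies in a quadrant of opposite signs.

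**Figure D4:**
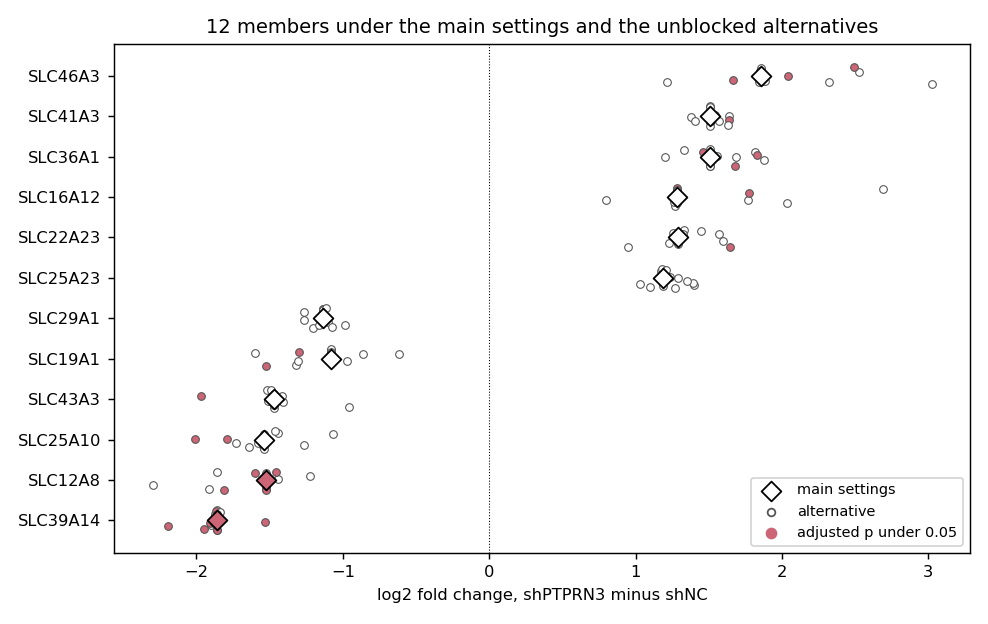
Log2 fold change (x axis) of 12 members under the main settings (diamonds) and under the unblocked alternatives (circles), filled where the adjusted p was under 0.05. No point of these members crosses 0, and filled circles appear for 10 of the 12 members in the alternatives.

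With 2 libraries against 2, an exact permutation test of any single gene cannot go below p = 0.333, two-sided.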

How the data were processed

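RNA of U87 cells was sequenced in 4 libraries, 2 per group, and each library has 1 gene table. The FPKM values were made by the authors with Cufflinks 2.2.1.2 after alignment with STAR 2.6.0b-1 to hg38 and quality checks with FastQC 0.72, per the submitters' processing notes. For the annotation and strand setting, a statement was not given in the sources used here, so reads of overlapping genes may be shared between them. FPKM carry no counts; depth was estimated from the deposited confidence intervals of single-exon genes of GENCODE 29, and the intervals cover counting error only.

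Rows whose status was not OK in any library (651 of 33646) were left out and FPKM were summed per symbol. Libraries were scaled by the median ratio over 9988 genes. Genes averaging 1 FPKM or more, without a listed 0, were tested on log2(scaled FPKM + 1) with limma 3.58.1 in R 4.3.3 (lmFit, eBayes with trend, two-sided, 2 residual and 8.3 prior degrees of freedom), with Benjamini-Hochberg adjustment over 11127 genes and calls at 0.05. Log2 differences on this scale understate low genes. In data simulated with variances drawn from limma's prior and independent noise in each library, the procedure recovered 2 of 67 genes with a log2 change of 1 in size. It recovered 46 of 67 at 2 and 64 of 66 at 3, and called 2 of 10927 unchanged genes. The simulated noise lacked the joint deviation of same-numbered libraries (r = 0.582), so these counts need not hold for the data. A member with a change near 1 could still easily go uncalled.

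The genes named were PTPRN, members called or listed at 0, the 10 highest, the 2 highest and 2 lowest log2 fold changes of each class with at least 4 tested members, a list of well-known transporters, the neighbours of the threshold and the 3 partners with the largest difference; some of these are not reported here. SLC6A6, SLC6A8, SLC6A12, SLC5A3, SLC38A1, SLC38A7, BSG and the genes overlapping members were named after their values were seen. Members and lists were chosen with earlier results of these data known. Alternatives changed the scaling, pseudocount, filter, listed zeros, row status, variance model, replicate block and libraries. Leaving out rows on alternate sequences and removing the trend with transcript length were added after seeing the data.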

Additional observations from a re-analysis of the deposited data

How the results depend on the processing

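Against 219 genes and 2 members called by limma in the main settings, FPKM as deposited gave 0 and 0 (1547 genes and 25 members at an unadjusted p under 0.05), TPM 52 and 0 (16 members unadjusted), quantile normalization 132 and 0 (28), eBayes without trend 111 and 0 (26), genes listed at 0 kept 48 and 1, a mean of at least 5 FPKM 56 and 0 (15), and no filter 0 and 0 (2001 and 24). A pseudocount of 0.1 or 0.5 left 1 member called, and removing the length trend gave 4. Leaving out 1 library in turn gave 98 to 607 genes and 1 to 9 members; the lone sample of a group is then assumed to vary like the other group. PTPRN was not called with genes listed at 0 kept (adjusted p = 0.0594), on FPKM as deposited (0.0606) or without a filter (0.113).

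With the replicate number as a block, 2453 genes (22.0%) and 36 members (22.8%; 21 higher and 15 lower) were called. Same-numbered libraries deviated together (r = 0.582 over 11127 genes), but with 2 pairs the labels do not say that a number marks a shared culture or day. The p-values of the block fit, and of the fits with 1 library left out, also equal normal tails with a variance pooled over genes. Larger counts of calls in these fits are therefore no measure of stronger evidence.

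Class medians moved as follows. With TPM they were -0.073 for mitochondrial carriers, 0.47 for zinc, 0.038 for vitamins and haem, 0.43 for organic ions and 0.25 for nucleotide sugars. At a mean of at least 5 FPKM they were -0.13 for mitochondrial carriers, 0.33 for zinc, 0.28 for other, 0.12 for organic ions, 0.79 for carboxylates, 0.58 for nucleotide sugars and -1.30 for nucleosides. A pseudocount of 0.1 gave -0.16 for mitochondrial carriers, 0.40 for zinc and 0.18 for nucleotide sugars, and 0.5 gave 0.38 for zinc. Mitochondrial carriers had -0.16 on deposited FPKM, -0.13 with quantile normalization (nucleotide sugars 0.19) and -0.14 with the length trend removed (zinc 0.33, vitamins and haem -0.031). Leaving out 1 library gave 0.010 to 0.23 for amino acids, -0.28 to -0.020 for mitochondrial carriers, 0.50 to 0.70 for carboxylates, -1.06 to -0.68 for nucleosides, -0.036 to 0.37 for nucleotide sugars, 0.31 to 0.43 for organic ions, 0.34 to 0.75 for other, -0.19 to 0.015 for sugars, -0.28 to 0.058 for vitamins and haem and 0.17 to 0.40 for zinc.

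Of 1164 values of 66 named genes under 18 alternatives, 1063 kept their direction and side of the threshold, and 20 genes changed sign at least once. With TPM the log2 fold change was 0.028 for SLC1A5, 0.016 for SLC20A1 and 0.003354 for SLC49A4. SLC7A11 had -0.0057 at a pseudocount of 0.1. With the length trend removed SLC7A11 had -0.064, SLC35A3 -0.073 and SLC22A5 -0.00070. Leaving out 1 library gave -0.77 to 0.56 for SLC16A3, -0.40 to 0.27 for SLC1A5, -0.23 to 0.092 for SLC20A1, -0.80 to 0.51 for SLC22A18, -0.039 to 0.32 for SLC23A2, -0.38 to 0.49 for SLC25A3, -0.26 to 0.48 for SLC25A39, -0.63 to 0.11 for SLC27A3, -0.13 to 0.87 for SLC29A3 and -0.052 to 0.24 for SLC2A1. It gave -0.063 to 0.23 for SLC35A3, -0.60 to 0.80 for SLC38A2, -0.035 to 0.24 for SLC39A1, -1.33 to 0.71 for SLC39A4, -0.89 to 0.25 for SLC3A2, -0.32 to 1.45 for SLC44A1, -0.24 to 0.094 for SLC49A4, -0.91 to 0.70 for SLC66A3 and -0.36 to 0.45 for SLC7A11. The cause was not tested.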

Other observations

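Several members differed more between libraries numbered 2 and those numbered 1, in both groups, than between the groups; they were singled out after their values were seen. SLC5A3, the sodium-coupled importer of the osmolyte inositol, stood at 4.41 and 39.7 scaled FPKM in shNC replicates 1 and 2 and at 5.45 and 23.2 in shPTPRN3 (a mean difference of 2.41 on the log2 scale between numbers). Its locus overlaps MRPS6, which stood at 252 and 338 in shNC and 160 and 320 in shPTPRN3. SLC6A12, which imports the osmolyte betaine, differed by 2.33 between numbers. The neutral amino acid importers SLC38A2 and SLC38A1 differed by 1.29 and 1.07. In these 4 genes both libraries numbered 2 were above both numbered 1.

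The order was the other way for SLC39A4 (-1.67), the lactate exporter SLC16A3 (-1.15), SLC22A18 (-1.12) and SLC66A3 (-1.11). Over the 158 tested members, both libraries numbered 2 were above both numbered 1 in 22 (13.9%) and below in 37 (23.4%), against 21.2% and 21.2% of all genes tested. The difference between numbers was larger than that between groups in 66 members (41.8%), against 49.1% of all genes. Without shNC replicate 1, SLC5A3 had a log2 fold change of -1.70, as the shNC value left (39.7) is above both shPTPRN3 values. Without shNC replicate 2 the order is the opposite, as the shNC value left (4.41) is below both shPTPRN3 values.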
